A study of Homo sapiens with 4 samples.

Results

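The genes examined encode the proteins of the mitochondrial ribosome. They were all rows of the authors' table whose gene symbol began with MRPL or MRPS followed by a digit, 78 of 19389 rows, with 49 genes of the large subunit (MRPL) and 29 of the small subunit (MRPS). They were measured by RNA sequencing in SW620, a human colorectal cancer line that is widely used, as 2 libraries of control cells and 2 libraries of cells treated with hydrogen peroxide (H2O2), an oxidant. The series title calls the treated cells senescent, and treatment lasted 2 days. The sample labels give a dose of 150 µM, whereas the design text states that figure in mM. The controls are labelled only as controls of this line, and no genotype difference or further agent is named for either group. Whether the 2 libraries in each group derive from different cultures is not stated, and the p-values therefore reflect a spread that may be technical. Measured in bulk RNA, a lower value cannot tell less mRNA per cell from fewer cells that make it.

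Mitochondria carry their own ribosome, which translates the few proteins encoded in mitochondrial DNA, all of them core parts of the respiratory chain and ATP synthase. All of its proteins are encoded in the nucleus, made in the cytosol and imported. The small subunit binds and decodes the mRNA, and the large subunit joins amino acids and releases the growing chain through its exit tunnel towards the inner membrane. Some of its proteins have a counterpart in bacterial ribosomes and others are specific to mitochondria.

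The deposited unit is FPKM, in which fragments are scaled to transcript length and to the fragments mapped in a library, so levels can be compared between genes per length, while the read depth behind them is unknown. The 4 libraries summed to 695837 and 660860 FPKM in the controls and 574782 and 617668 FPKM after H2O2, so both treated libraries had the lower totals. Of 10 markers of colon epithelium, 7 passed the filter, 5 of them with lower and 2 with higher mean levels after H2O2. EPCAM stood at 336 and 295 FPKM in the controls and at 278 and 215 FPKM after H2O2, LGR5 at 14.6 and 18.6 FPKM against 11.3 and 7.46 FPKM, and CDH1, in the other direction, at 14.8 and 9.93 FPKM against 23.0 and 16.6 FPKM. CDX2 ran from 1.05 to 4.68 FPKM, CDX1 was listed at 0 in all libraries, and KRT20 and GPA33 stayed below 1 FPKM. Of the leukocyte markers, the defining PTPRC was at or near 0 in every library, and CD68 stood at 1.92 and 1.83 FPKM in the controls and at 7.65 and 17.7 FPKM after H2O2. The summed level of the 6 leukocyte markers was 5.16 and 6.68 FPKM in the controls and 12.5 and 36.7 FPKM after H2O2. The 6 fibroblast markers summed to 2.88 and 4.31 FPKM in the controls and to 4.41 and 6.03 FPKM after H2O2, with COL1A2 and COL3A1 at or near 0 and THY1 at 0.361 and 0.159 FPKM against 1.37 and 1.93 FPKM. The 5 endothelial markers summed to 0.360 and 0.223 FPKM in the controls and to 2.67 and 2.02 FPKM after H2O2, of which TIE1 made up 2.21 and 1.67 FPKM. Of the globins, HBB was listed at 0 in all libraries and HBA1 ran from 3.50 to 9.64 FPKM, with overlapping groups. The part of such cells in the values below was not tested.

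All 78 genes were well expressed and all passed the filter, which asked for 1 FPKM or more in 2 or more libraries. Their mean over the 4 libraries ran from 11.4 FPKM for MRPS31 to 242 FPKM for MRPS24. The highest of the large subunit were MRPL51, a mitochondria-specific protein, and MRPL12, the stalk protein whose bacterial counterpart recruits translation factors. The lowest of the large subunit were MRPL50 and MRPL1. In the small subunit MRPS24, a relative of bacterial S3 at the mRNA entrance, and MRPS6 were highest, and MRPS11 and MRPS31 lowest. Although the products occur together in 1 particle, the mRNA levels of genes in the same library thus spanned more than an order of magnitude. The genes lay on 21 chromosomes.

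**Figure D1:**
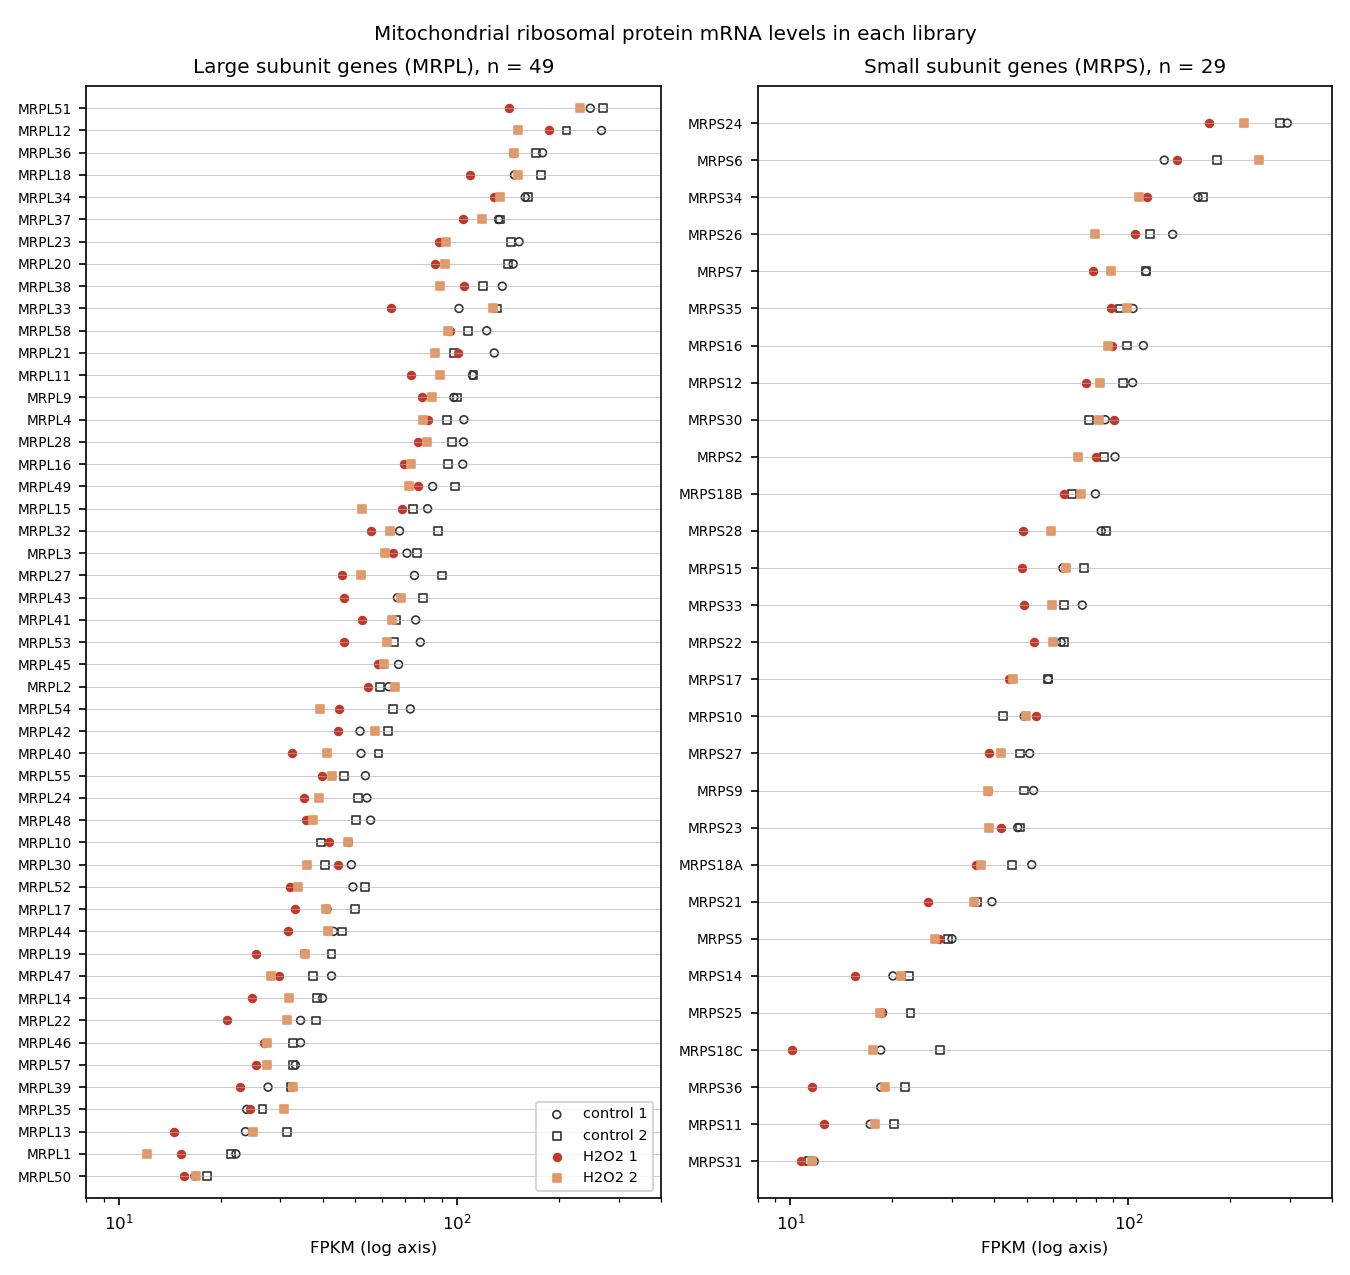
FPKM (log axis) of each of the 49 large subunit and 29 small subunit genes, ordered by mean level, with open symbols for the 2 control libraries and filled symbols for the 2 H2O2 libraries. Levels ran from 11.4 FPKM (MRPS31) to 242 FPKM (MRPS24) on average, and for most genes the filled symbols lie to the left of the open ones.

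Mitochondrial ribosomal protein mRNAs were lower in the H2O2 libraries than in the controls across both subunits, by a modest amount for each gene. The 78 genes summed to 6244 and 6179 FPKM in the controls and to 4645 and 5190 FPKM after H2O2, which was 0.897% and 0.935% of all FPKM in the controls and 0.808% and 0.840% after H2O2. The groups did not overlap on either scale. On log2(FPKM + 1), the median change of the 78 genes was -0.31, with the middle 50% of genes between -0.46 and -0.22, beside a median of -0.029 over all 11318 genes tested. A negative change was found for 73 of the 78 genes (93.6%), beside 54.3% of all genes tested. Both H2O2 libraries lay below both controls for 55 genes (70.5%), beside 24.0% of all genes, and above both controls for 1 gene, MRPS10, beside 19.3% of all genes.

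No single gene passed the adjusted test in this comparison. In limma with Benjamini-Hochberg adjustment over all genes, 0 of the 78 reached an adjusted p under 0.05, as did 0% of the 11318 genes, and the smallest adjusted p among the 78 was 0.283 (MRPL23). Before adjustment, 19 of the 78 (24.4%) were lower at p under 0.05, beside 4.91% of all genes, and 0 were higher, beside 6.22%. The first of these counts was 6 with each library rescaled to the same total, beside 1.16% of all genes in that fit. It also moved, in both directions, with the library left out.

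The 2 treated libraries did not sit equally low. Relative to the control mean, the median of the 78 genes was -0.39 in H2O2 library 1 and -0.26 in H2O2 library 2 on the log2 scale, while the control libraries lay at 0.022 and -0.022. H2O2 library 1 was the lower of the treated libraries for 57 of the 78 genes, beside 5566 of all 11318 genes tested. Over all genes tested the corresponding medians were -0.0098 and -0.043, with the second library the lower. The plot of differences by library gives both values for each gene; they share the same control mean.

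**Figure D2:**
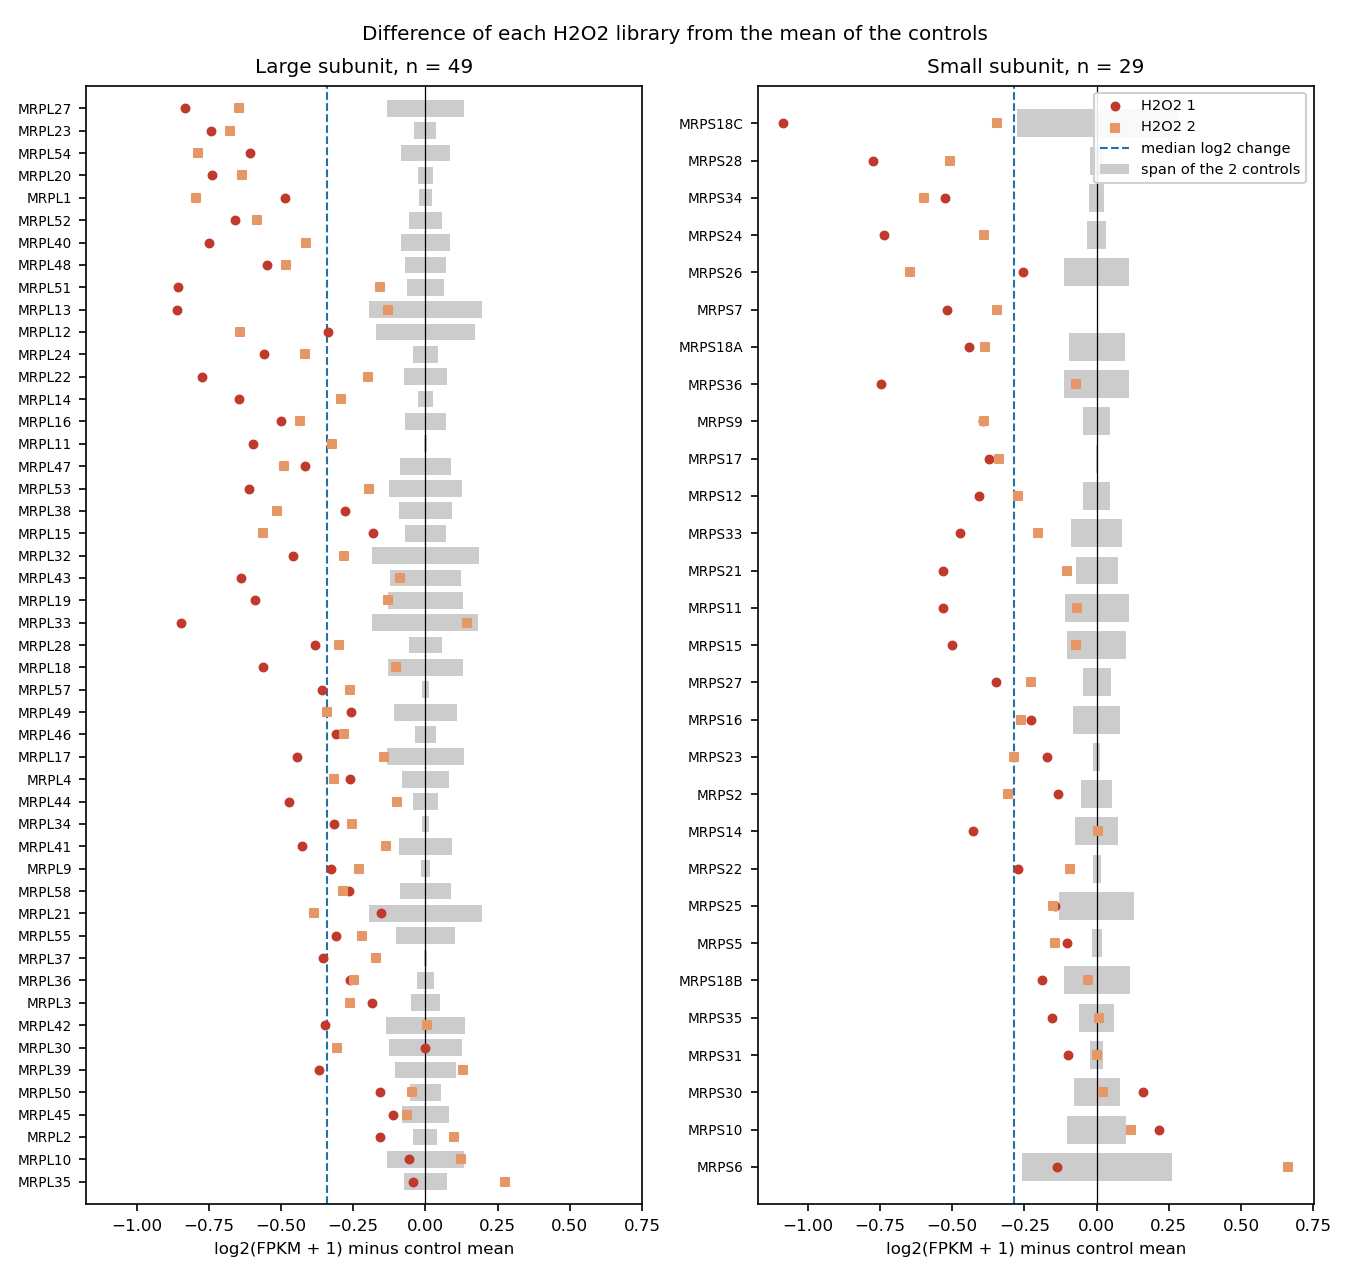
Difference of each H2O2 library from the mean of the controls, in log2(FPKM + 1), for each large and small subunit gene, ordered by log2 change; grey bars span the 2 controls and the dashed line is the subunit's median log2 change (-0.34 and -0.29). Both treated libraries lie left of the grey bar for 36 of 49 large and 19 of 29 small subunit genes, and right of it for MRPS10. Over all genes tested, both lay below the controls in 24.0% and above them in 19.3%.

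Of the 49 large subunit genes, 47 (95.9%) had a negative change, beside 54.3% of all genes tested. Of these 49, 36 (73.5%) had both H2O2 libraries below both controls, beside 24.0%. Of the lower ones 13 (26.5% of the 49) had an unadjusted p under 0.05, beside 4.91%. The lowest of the large subunit was MRPL27 (chromosome 17, 50367857 to 50373214, minus strand of hg38), whose bacterial counterpart reaches into the peptidyl transferase centre. It was at 74.7 and 90.2 FPKM in the controls and at 45.7 and 52.1 FPKM after H2O2. The groups were well apart, and its log2 change was -0.74 ± 0.18 (SE; limma, unadjusted p = 0.00571, adjusted p = 0.305). MRPL23, at the mouth of the exit tunnel, stood at 152 and 145 FPKM in the controls and at 88.3 and 92.6 FPKM after H2O2. Within each of its groups the libraries differed by a few percent only, and the log2 change was -0.71 ± 0.16 (SE; adjusted p = 0.283 in limma). MRPL20, whose bacterial counterpart binds ribosomal RNA early in assembly, gave 146 and 141 FPKM against 85.9 and 92.3 FPKM, a log2 change of -0.69 ± 0.16 (SE; limma adjusted p = 0.298). Both treated libraries of MRPL20 were clearly below the controls.

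The L7/L12 stalk and its base, where translation factors dock, had 5 genes with a median log2 change of -0.46, of which 4 were negative. That median was -0.28 with each library rescaled to the same total, -0.28 with quantile normalization and -0.26 with cyclic loess. MRPL54, a mitochondria-specific protein of this region, was at 72.7 and 64.5 FPKM in the controls and at 44.6 and 39.2 FPKM after H2O2, with a log2 change of -0.70 ± 0.17 (SE; limma adjusted p = 0.305). MRPL12 itself was at 267 and 210 FPKM and, after H2O2, at 187 and 152 FPKM. Both of its treated libraries were below both controls, but the controls differed from each other by almost as much as the groups did, and the log2 change was -0.49 ± 0.21 (SE; limma unadjusted p = 0.0536). MRPL11 at -0.46 and MRPL53 at -0.40 also had negative log2 changes. MRPL10, which in bacteria anchors the L12 dimers to the ribosome, did not share this: it was at 47.6 and 39.5 FPKM in the controls and at 41.7 and 47.4 FPKM after H2O2, so the groups overlapped fully, with a log2 change of 0.03.

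At the peptide exit tunnel all 7 genes had a negative change, beside 54.3% of all genes tested. Of the 7, 3 (42.9%) were lower at an unadjusted p under 0.05, beside 4.91% of all genes. The 7 had a median log2 change of -0.45. Without H2O2 library 1 the median was -0.20 with 6 negative, with the length and GC correction -0.26, and with each library rescaled to the same total -0.27 with 5 negative. Their values spread widely, from MRPL23 at -0.71 to MRPL45 at -0.09. MRPL45 is the mitochondria-specific protein that holds the ribosome at the inner membrane. It stood at 67.1 and 59.8 FPKM in the controls and at 58.5 and 60.5 FPKM after H2O2, so the groups overlapped, and its sign turned positive with each library rescaled to the same total (0.096), with quantile normalization (0.035) and with cyclic loess (0.058). MRPL44, which has an RNase III-like fold, gave 43.1 and 45.7 FPKM against 31.7 and 41.4 FPKM, a log2 change of -0.29 ± 0.19 (SE). Its H2O2 library 1 was well below the controls and library 2 just below.

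The central protuberance, the crown of the large subunit facing the tRNAs and the small subunit head, had 11 genes with a median log2 change of -0.35, which was -0.55 without H2O2 library 2, -0.19 with the length and GC correction, -0.19 with cyclic loess, -0.21 with quantile normalization and -0.17 with each library rescaled to the same total. Of these, 10 had a negative change, and 4 of those had an unadjusted p under 0.05 (MRPL27, MRPL40, MRPL48 and MRPL52). MRPL58, a peptidyl-tRNA hydrolase built into the particle that can free stalled ribosomes, was at 122 and 108 FPKM in the controls and at 95.4 and 94.0 FPKM after H2O2. Its groups did not overlap, with a log2 change of -0.28 ± 0.16 (SE; limma unadjusted p = 0.143). MRPL33 differed most between the treated libraries of all genes of the large subunit: it was at 101 and 131 FPKM in the controls, and at 63.6 FPKM in H2O2 library 1 but 127 FPKM in H2O2 library 2. Only the first of these was outside the range of the controls, and without it the log2 change was 0.15. MRPL35 was the large subunit gene with the highest change, at 23.8 and 26.6 FPKM in the controls and 24.4 and 30.7 FPKM after H2O2. Its groups overlapped, with a log2 change of 0.12 that became -0.043 without H2O2 library 2.

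The remaining large subunit genes named for their role or level ran from well below the subunit's median to near 0. MRPL1, a relative of the bacterial protein of the mobile L1 stalk, was at 22.2 and 21.4 FPKM in the controls and at 15.3 and 12.1 FPKM after H2O2, among the lower ones, with a log2 change of -0.64 ± 0.18 (SE; limma adjusted p = 0.323). MRPL51 was at 248 and 270 FPKM in the controls, and after H2O2 at 142 FPKM in library 1 and 232 FPKM in library 2, so that most of its log2 change of -0.51 ± 0.26 (SE) came from 1 library. MRPL37, specific to mitochondria, gave 133 and 134 FPKM against 104 and 118 FPKM. MRPL3, whose counterpart lies in the core of bacterial ribosomes, gave 71.0 and 76.2 FPKM against 64.6 and 61.2 FPKM. For both the treated libraries were below the controls by a small margin, with log2 changes of -0.26 and -0.22. MRPL50 hardly differed, at 16.8 and 18.2 FPKM in the controls and 15.5 and 16.9 FPKM after H2O2, and its log2 change of -0.10 became 0.076 with each library rescaled to the same total.

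Of the 29 small subunit genes, 26 (89.7%) had a negative change, beside 54.3% of all genes tested. Of these 29, 19 (65.5%) had both H2O2 libraries below both controls, beside 24.0%. Of the lower ones 6 (20.7% of the 29) had an unadjusted p under 0.05, beside 4.91%. MRPS28 was at 83.0 and 85.9 FPKM in the controls and at 48.9 and 59.1 FPKM after H2O2. The controls nearly coincided and both treated libraries were far below them, with a log2 change of -0.64 ± 0.17 (SE; limma unadjusted p = 0.00924, adjusted p = 0.315). MRPS34, specific to mitochondria, gave 161 and 167 FPKM in the controls against 113 and 108 FPKM after H2O2, a log2 change of -0.56 ± 0.16 (SE; limma adjusted p = 0.329). MRPS24 gave 295 and 281 FPKM against 173 and 220 FPKM, a log2 change of -0.56 ± 0.19 (SE; limma adjusted p = 0.393). All 3 genes had groups that did not overlap, with the first treated library the lower for MRPS28 and MRPS24 and the second for MRPS34.

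Among the proteins with known roles in decoding and in binding rRNA, MRPS7, which organises the head of the small subunit in bacteria, was at 113 FPKM in both controls and at 78.4 and 88.5 FPKM after H2O2. Its log2 change was -0.43 ± 0.16 (SE; limma unadjusted p = 0.0372). MRPS12, at the decoding centre, was at 103 and 96.2 FPKM and, after H2O2, at 74.8 and 82.2 FPKM, with a log2 change of -0.34 ± 0.16 (SE). Both had treated libraries below both controls. MRPS5 was barely lower, at 30.1 and 29.3 FPKM in the controls and 27.6 and 26.8 FPKM after H2O2, a log2 change of -0.12 that was 0.057 with each library rescaled to the same total. MRPS11, of the platform, gave 17.2 and 20.2 FPKM against 12.6 and 17.8 FPKM, so its second treated library lay between the controls.

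The mitochondria-specific small subunit proteins included MRPS27, a pentatricopeptide repeat protein, at 51.0 and 47.7 FPKM in the controls and 38.6 and 42.0 FPKM after H2O2. MRPS22 was at 63.2 and 64.5 FPKM and, after H2O2, at 52.7 and 59.8 FPKM. Both had treated libraries below both controls, with log2 changes of -0.29 ± 0.16 and -0.18 ± 0.16 (SE). MRPS31, the least abundant of the 78, was at 11.8 and 11.4 FPKM and at 10.7 and 11.6 FPKM, with overlapping groups and a log2 change of -0.05.

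The bacterial protein S18 has the paralogs MRPS18A, MRPS18B and MRPS18C in human mitochondria, which occupy different places in the particle, MRPS18A in the large subunit despite its symbol. MRPS18A was at 51.7 and 45.1 FPKM in the controls and at 35.3 and 36.8 FPKM after H2O2, without overlap, a log2 change of -0.41 ± 0.16 (SE; limma unadjusted p = 0.0435). MRPS18C was at 18.5 and 27.6 FPKM in the controls and at 10.1 and 17.6 FPKM after H2O2. The second treated library of MRPS18C was only just below the first control, and the log2 change of -0.72 ± 0.30 (SE), the lowest of the small subunit, had an unadjusted p of 0.0549 in limma. MRPS18B was at 79.9 and 68.1 FPKM in the controls and at 64.5 and 72.2 FPKM after H2O2, with overlapping groups and a log2 change of -0.11 that was above 0 under 3 other scalings. Whether the 3 paralogs differed from each other was not tested.

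Few genes were higher. MRPS10, a head protein whose counterpart in bacteria is S10, was at 49.2 and 42.6 FPKM in the controls and at 53.3 and 49.8 FPKM after H2O2. Its second treated library exceeded the first control by little, and the log2 change was 0.17 ± 0.17 (SE; limma adjusted p = 0.771). MRPS6 was at 128 and 183 FPKM in the controls and at 139 and 243 FPKM after H2O2, with overlapping groups; its log2 change of 0.26 became -0.14 without H2O2 library 2. Exons of MRPS6 overlap those of SLC5A3, a myo-inositol transporter gene on the same strand, which was at 10.3 and 18.5 FPKM in the controls and at 21.7 and 27.6 FPKM after H2O2, so how reads were shared between them bears on both values and was not tested. MRPS30, which sits in the large subunit of the human particle, was at 85.3 and 76.3 FPKM and, after H2O2, at 90.4 and 82.0 FPKM, again overlapping, with a log2 change of 0.09. MRPS36 is now regarded chiefly as a part of the 2-oxoglutarate dehydrogenase complex. It was at 18.5 and 21.8 FPKM in the controls and at 11.6 and 19.1 FPKM after H2O2, with 1 treated library between the controls.

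The subunits differed little from each other. The median log2 change was -0.34 for the large and -0.29 for the small subunit, a difference of -0.054 (large minus small). In each library, the difference between the subunits' medians, relative to the control mean, was 0.00059 and -0.00059 in the controls, -0.045 in H2O2 library 1 and -0.058 in H2O2 library 2, so both treated libraries placed the large subunit slightly lower. The large subunit held 65.2% of the genes' summed FPKM in either control, 63.9% in H2O2 library 1 and 63.5% in H2O2 library 2. The middle 50% of genes ran from -0.49 to -0.27 in the large and from -0.41 to -0.15 in the small subunit, so the distributions overlapped widely. A lower level at an unadjusted p under 0.05 was reached by 26.5% of large and 20.7% of small subunit genes, beside 4.91% of all genes. Assigning MRPS18A and MRPS30 to the large subunit, where the structure places them, and leaving out MRPS36 left the medians at -0.34 and -0.29. With 2 libraries against 2, no exact two-sided test of such a difference could go below a p of 1 in 3, so none was made.

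The direction of the difference between the subunits depended on the processing and on the genes kept. Transcripts of the large subunit were shorter, with a median of 1010 bases against 1344 bases for the small subunit, and short transcripts were lower after H2O2 in general. When the dependence of each library on transcript length and GC content was removed, the medians were -0.22 for the large and -0.23 for the small subunit, a difference of 0.015 with the opposite sign. Among the 24 genes with neither an exon overlap nor a named pseudogene (19 large and 5 small, a selection made after the data were seen) it was 0.099.

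**Figure D3:**
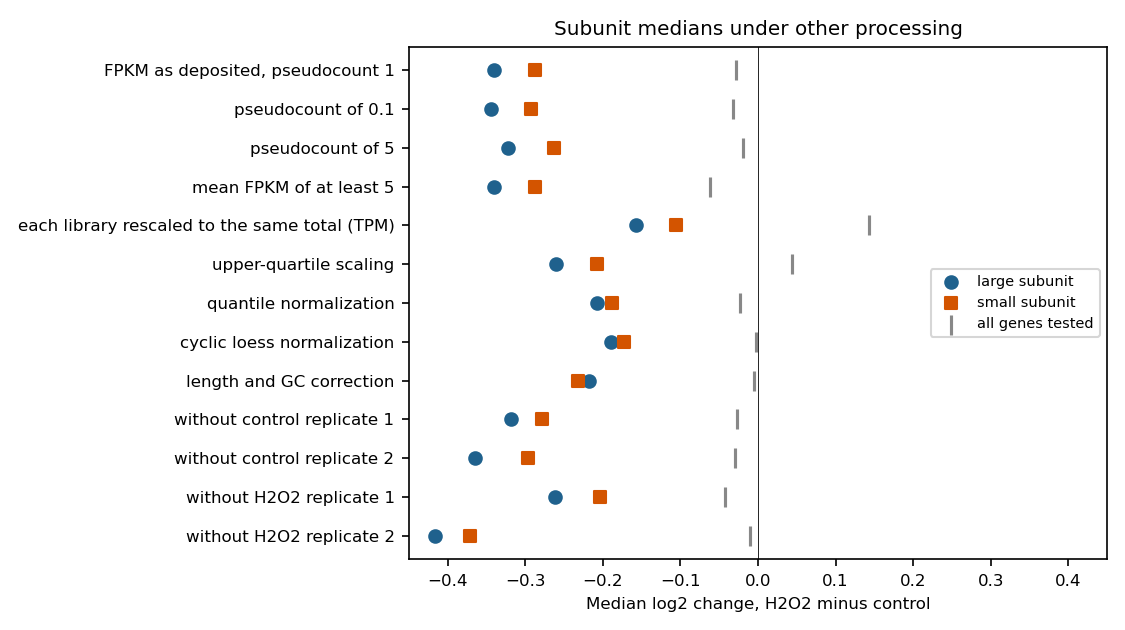
Median log2 change (H2O2 minus control) of large subunit genes (circles), small subunit genes (squares) and all genes tested (grey ticks) under each way of scaling, filtering or leaving out a library. Both subunits lie below 0 and below all genes in every row plotted, while their order turns under the length and GC correction (-0.22 and -0.23).

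By evolutionary origin the genes again lay close together. The 46 genes with a bacterial counterpart had a median log2 change of -0.34 and the 32 mitochondria-specific ones -0.29. Of the S18 paralogs, the hand assignment put MRPS18C in the first class and MRPS18A and MRPS18B in the second, which also holds MRPS36. With the subunits split by symbol, all 19 mitochondria-specific genes of the large subunit had a negative change (median -0.30). So had 28 of 30 with a bacterial counterpart (median -0.35). In the small subunit the counts were 12 of 13 (median -0.23) and 14 of 16 (median -0.31). These 13 include MRPS18A and MRPS30, which the structure places in the large subunit. MRPS30 was the only positive gene among the 13, with a log2 change of 0.09. With each library rescaled to the same total, 15 of 19 and 7 of 13 mitochondria-specific genes were negative in the large and small subunit (medians -0.12 and -0.047), and without H2O2 library 1 17 of 19 and 10 of 13 (medians -0.19 and -0.15). With the length and GC correction the order of the large subunit classes turned, to -0.21 with and -0.22 without a bacterial counterpart. No test was made between these classes.

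Ribosomal proteins named under other symbols did not all lie in the same direction. AURKAIP1, of the small subunit, was at 197 and 188 FPKM in the controls and at 130 and 138 FPKM after H2O2, a log2 change of -0.52 ± 0.16 (SE; limma unadjusted p = 0.0173). CHCHD1, also of the small subunit, was at 97.7 and 98.6 FPKM and, after H2O2, at 59.6 and 77.4 FPKM. GADD45GIP1, of the large subunit, was at 43.2 and 41.8 FPKM and, after H2O2, at 26.9 and 30.3 FPKM. These 3 genes had groups that did not overlap, with log2 changes of -0.53 ± 0.19 and -0.56 ± 0.16 (SE) for the last 2. DAP3, a GTP-binding protein of the small subunit that was first described for a role in cell death, was at 88.1 and 75.6 FPKM in the controls and at 92.4 and 83.2 FPKM after H2O2, and PTCD3 was at 16.5 and 16.9 FPKM and at 17.4 and 17.1 FPKM. The groups overlapped for DAP3, while both treated libraries of PTCD3 lay just above the controls, with log2 changes of 0.10 ± 0.17 and 0.04 ± 0.16 (SE).

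The factors that work with the mitochondrial ribosome had smaller median changes, and 0 of them passed the adjusted test. The 14 translation factors had a median log2 change of -0.10, with 9 negative (64.3%), of which 1 had an unadjusted p under 0.05 (7.14%), near the 54.3% and 4.91% of all genes. That gene was MRRF, the ribosome recycling factor, at 32.8 and 29.8 FPKM in the controls and 23.3 and 22.0 FPKM after H2O2. The release-factor homologue MTRFR, listed as C12orf65, was at 13.7 and 15.1 FPKM against 11.0 and 10.6 FPKM. The 26 assembly factors had a median of -0.20, with 23 negative (88.5%), of which 3 had an unadjusted p under 0.05 (11.5%). Of these, RBFA, a small subunit assembly factor, was at 14.1 and 14.4 FPKM in the controls and 8.57 and 10.1 FPKM after H2O2, and MTG1, a GTPase of large subunit assembly, at 13.3 and 19.8 FPKM against 10.6 and 10.3 FPKM. The 17 mitochondrial tRNA synthetases had a median of -0.14, with SARS2 at 20.5 and 21.4 FPKM against 15.1 and 14.3 FPKM and EARS2 at 14.98 and 16.5 FPKM against 13.3 and 11.2 FPKM. The 19 of 21 transcription and RNA factors with a row had a median of -0.16; HSD17B10, a part of mitochondrial RNase P, was at 212 and 211 FPKM in the controls and 156 and 162 FPKM after H2O2, and TFAM, which packs mitochondrial DNA, at 105 and 101 FPKM against 94.1 and 76.1 FPKM. With each library rescaled to the same total the medians of the translation factors (0.085), tRNA synthetases and RNA factors turned positive and that of the assembly factors was -0.026 (13 of 26 negative), while all genes moved to 0.14.

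Genes of the cytosolic ribosome and of the respiratory chain lay on the same side as deposited, but the cytosolic ones not under every scaling. The 81 cytosolic ribosomal protein genes tested had a median log2 change of -0.23 (76 negative). Both treated libraries lay below both controls in 49 of them (60.5%), beside 24.0% of all genes. Only 2 of the 81 were lower at an unadjusted p under 0.05, a share of 2.47% that is below the 4.91% of all genes. Those 2 were RPS15, at 2646 and 2683 FPKM in the controls and 1477 and 1984 FPKM after H2O2, and RPL28, at 1678 and 1220 FPKM against 1013 and 945 FPKM. The 79 nuclear genes of oxidative phosphorylation subunits tested had a median of -0.41 (75 negative), of which 11 (13.9%) had an unadjusted p under 0.05. The complex I subunits NDUFA7, at 95.1 and 102 FPKM in the controls and 53.2 and 68.4 FPKM after H2O2, and NDUFB2, at 165 and 186 FPKM against 85.1 and 123 FPKM, had the smallest p among them. This list was picked by symbol pattern, which took in the associated factors ATP5IF1 and ATP5S and could not match the subunits COX4I1 and NDUFAB1. The treated libraries differed more in the respiratory chain, at -0.66 in H2O2 library 1 and -0.14 in library 2, than in the mitochondrial ribosome at -0.39 and -0.26. Cytosolic ribosomal proteins were at -0.34 and -0.14, and their median was above 0 with quantile normalization (0.015) and cyclic loess (0.050), where the mitochondrial ones were at -0.21 and -0.19. These lists share the same 4 libraries, and differences between them were not tested.

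**Figure D4:**
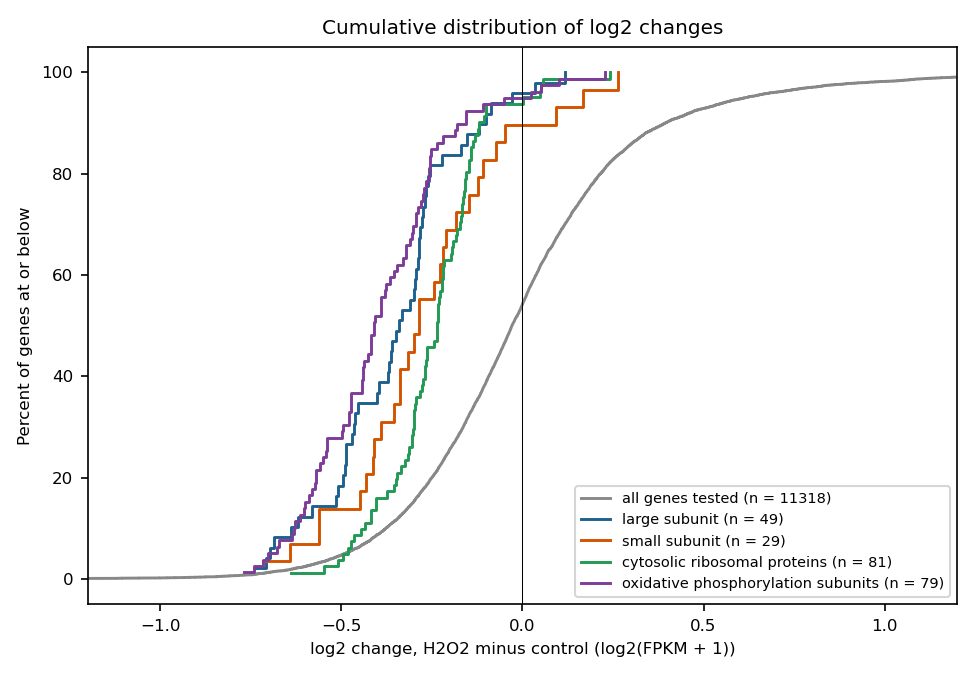
Cumulative percent of genes at or below each log2 change (H2O2 minus control) for large and small subunit genes, cytosolic ribosomal protein genes, oxidative phosphorylation subunit genes and all 11318 genes tested. The median is -0.34 for the large subunit, -0.29 for the small subunit, -0.23 for cytosolic ribosomal proteins, -0.41 for oxidative phosphorylation and -0.029 for all genes.

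Mitochondrial ribosomal protein mRNAs are short and abundant, and such mRNAs were lower as a class after H2O2. Among all genes of the same abundance range (6074 genes) the median log2 change was -0.09, and with length also in range (5467 genes) it was -0.10, with both treated libraries below both controls in 31.6%. Genes shorter than 1000 bases at 50 FPKM or more (554 genes) had a median of -0.29, close to the -0.35 of the 22 mitochondrial ribosomal protein genes among them. At that length and 10 to 50 FPKM (389 genes) it was -0.17, beside -0.49 for 8 mitochondrial ribosomal protein genes. Between 1000 and 1500 bases the medians were -0.09 (1092 genes at 10 to 50 FPKM) and -0.19 (598 genes at 50 FPKM or more), beside -0.34 for 10 and -0.34 for 17 mitochondrial ribosomal protein genes. Between 1500 and 2500 bases they were -0.05 and -0.15, beside -0.21 for 13 and -0.11 for 5. Above 2500 bases they were -0.0047 (1689 genes) and -0.12 (243 genes), beside -0.29 for 2 mitochondrial ribosomal protein genes and -0.17 for 1. In the most abundant of the short genes the 2 treated libraries were at -0.41 and -0.16. Within the 78 genes, longer transcripts had changes closer to 0, with a Pearson r of 0.47 and a Spearman rho of 0.48 across genes; these genes share the same 4 libraries and are no replicates. With length and GC content corrected in each library, the median of the 78 genes was -0.22, beside -0.01 for all genes, and the treated libraries were nearer to each other at -0.23 and -0.20.

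**Figure D5:**
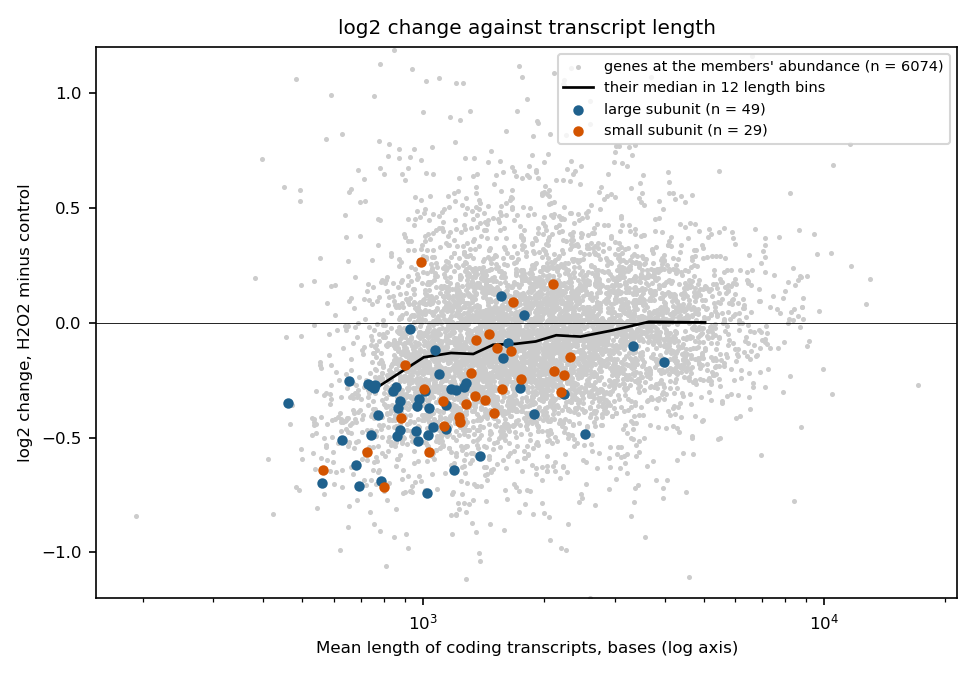
log2 change (H2O2 minus control) against mean length of coding transcripts (log axis) for large subunit genes, small subunit genes and, in grey, 6074 genes of the same abundance range, with the black line joining the medians of those genes in 12 length bins. The black line is lowest for short transcripts, and across the 78 genes change and length had a Pearson r of 0.47.

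Promoters of the genes were compared because genes of the mitochondrial ribosome are known targets of ETS-family factors such as GABP, of NRF1 and of YY1. RefSeq promoter windows (GRCh38.p14) were at hand for 69 of the 78 genes, 42 large and 27 small, and the 250 bases before the start were searched on both strands. The start is the one RefSeq gives. For some genes, among them MRPL1, MRPL11, MRPS12 and MRPS24, all 250 bases lie inside the gene as GENCODE annotates it. The ETS core CCGGAAG was found in 23 of 69 (33.3%), in 33.3% of the large and 33.3% of the small subunit genes, beside 17.2% of 9011 genes tested with a window and 8.82% of all 27305 windows. The YY1 core AAGATGGC was in 5 of 69 (7.25%), beside 1.94% and 1.37%. The NRF1 core CGCANGCG was in 13 (18.8%), beside 17.6% and 9.17%, and the E-box CACGTG in 6 (8.70%), beside 9.17% and 6.49%. No matches of different motifs overlapped in these 69 windows. The 23 genes with the ETS core had a median log2 change of -0.40 and the 46 without it -0.29; for NRF1 the medians were -0.31 and -0.31. NRF1 mRNA was at 8.87 and 7.84 FPKM in the controls and at 6.74 and 5.67 FPKM after H2O2, and GABPA, the DNA-binding part of GABP, at 10.8 and 13.1 FPKM against 10.9 and 10.6 FPKM.

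The ETS core was found in genes across the range of changes. MRPS22 (-0.18) and MRPS31 (-0.05) also carry it, while MRPL1 (-0.64) and MRPS24 (-0.56) had no match of the 4 motifs. All 4 windows printed here hold the core. The windows are shown 5′ to 3′ on the strand of the gene, ending just before the start that RefSeq gives, with matches of the 4 motifs in capitals. They are those of MRPL27 (chr17:50373185-50373434), MRPL20 (chr1:1407294-1407543) and MRPS34 (chr16:1773135-1773384), which were low after H2O2, and of MRPS10 (chr6:42217862-42218111), the gene with both treated libraries above both controls, all on the minus strand. By GENCODE release 29 the genes begin further upstream, so the last 30, 20, 21 and 4 bases of the windows, in that order, lie inside the annotated gene.
MRPL27: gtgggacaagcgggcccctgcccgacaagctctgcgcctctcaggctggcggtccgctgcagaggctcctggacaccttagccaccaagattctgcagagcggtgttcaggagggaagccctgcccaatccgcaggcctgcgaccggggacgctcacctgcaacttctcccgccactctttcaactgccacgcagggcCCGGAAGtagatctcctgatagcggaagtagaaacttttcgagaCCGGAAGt
MRPL20: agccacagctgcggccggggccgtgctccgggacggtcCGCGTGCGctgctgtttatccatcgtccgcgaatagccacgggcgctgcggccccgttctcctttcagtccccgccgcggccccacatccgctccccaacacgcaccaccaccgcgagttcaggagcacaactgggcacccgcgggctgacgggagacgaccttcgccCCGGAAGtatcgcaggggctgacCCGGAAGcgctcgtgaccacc
MRPS34: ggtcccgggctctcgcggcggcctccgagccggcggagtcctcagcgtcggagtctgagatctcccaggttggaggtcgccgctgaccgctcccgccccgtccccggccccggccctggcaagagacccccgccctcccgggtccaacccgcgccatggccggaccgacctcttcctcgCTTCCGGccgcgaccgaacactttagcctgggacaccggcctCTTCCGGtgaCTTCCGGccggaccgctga
MRPS10: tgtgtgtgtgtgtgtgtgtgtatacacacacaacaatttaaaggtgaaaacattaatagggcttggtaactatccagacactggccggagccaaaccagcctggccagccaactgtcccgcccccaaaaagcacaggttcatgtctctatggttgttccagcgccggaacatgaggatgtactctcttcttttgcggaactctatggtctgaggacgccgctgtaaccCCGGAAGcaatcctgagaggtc
MRPL27 and MRPL20 carry 2 copies of the ETS core each, MRPL20 also a match of the NRF1 core, MRPS34 carries 3 ETS cores on the opposite strand (read here as CTTCCGG), and MRPS10 carries 1. The log2 changes of these 4 genes were -0.74, -0.69, -0.56 and 0.17 in that order. The change of MRPS10 was about as large as its SE of 0.17, with an adjusted p of 0.771 in limma. MRPS6 and MRPS30, the other genes with a positive change and a window, had no match of the 4 motifs. A match is a description of the letters and does not show that a factor binds there.

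Some values rest on regions that other genes share. By GENCODE release 29, 13 of the 78 genes have exons that overlap another protein-coding gene on the same strand and 21 on the opposite strand (34 on either), and 34 have at least 1 pseudogene named after them. Whether strand was used in making the FPKM is not stated. The 24 genes with neither had a median log2 change of -0.31, and 22 of them were negative.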

How the data were processed

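A directional kit was used on 1 µg of total RNA, per the labels' protocols, and the submitters' processing notes name STAR 2.5, Cufflinks 2.2.1 and hg38. The authors deposited FPKM per gene and library in 1 table of 19389 protein-coding rows; no source used here gives the annotation, strand setting or filters. Values were transformed as log2(FPKM + 1), and the 11318 genes that reached 1 FPKM in 2 or more libraries were fitted with limma 3.58.1 in R 4.3.3 (group as the only term, variances moderated towards a trend, two-sided, Benjamini-Hochberg over all genes, threshold 0.05). The fit had 2 residual and 6.28 total degrees of freedom. log2 changes are H2O2 minus control and understate the change of low genes. The members and lists were chosen with earlier results of these data known, and the 4 motifs after seeing the promoter table. Members were named by a rule: a set of known role, in each subunit the 4 smallest p lower and up to 4 higher, the 2 highest and 2 lowest levels, and the 3 that differed most between treated libraries; from each list the 2 smallest p. Others named (MRPL11, MRPL40, MRPL48, MRPL52 and MRPL53, with MRPL32, MRPL34, MRPL43, MRPL46, MRPL49 and MRPS14 in the closing section) were chosen after their values were seen, as were SLC5A3, GABPA, MYC and the overlapping neighbours. Origin and place in the particle were assigned by hand. Lengths (the mean of a gene's coding transcripts), GC content and coordinates come from GENCODE 29, in which all 19389 identifiers were found. The fit was tested on simulated data with independent noise and changes of 2-fold or 4-fold, larger than those of the mitochondrial ribosomal protein genes. The simulation held no differences in library totals and no dependence on transcript length, so it does not bear on these. Plots used matplotlib 3.10.9 under Python 3.11.15.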

Additional observations from a re-analysis of the deposited data

How the results depend on the processing

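With 2 libraries a group, no gene of the mitochondrial ribosome passed the adjusted test in any fit without a replicate block. The libraries carry the numbers 1 and 2, and deviations of libraries with the same number correlated (r = 0.451 over 11318 genes), but 2 pairs do not show that the numbers pair them. With the replicate number as a block, 8 of the 78 genes were called, all lower, among 587 of 11318 genes called in all. In that fit 33 of the 78 were lower at an unadjusted p under 0.05, beside 9.80% of all genes. Those 8 were MRPL1, MRPL20, MRPL23, MRPL27, MRPL52, MRPL54, MRPS18C and MRPS28. With the block and the length and GC correction together, 0 were called, and the medians were -0.22 for all 78 genes and -0.22 for the large subunit, with large minus small at 0.015.

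The number at an unadjusted p under 0.05 (19) was 30 with no filter on low values, 6 with each library rescaled to the same total (TPM), 11 with upper-quartile scaling, 9 with quantile normalization, 8 with cyclic loess and 9 with the length and GC correction. Leaving out 1 library gave 2 to 38: 2 without control 1, 3 without control 2, 18 without H2O2 library 1 (17 lower, 1 higher) and 38 without H2O2 library 2. In each of these 4 fits 1 group has a lone library, whose variance is taken from the other.

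The median log2 change of the 78 genes was negative in every setting run: -0.13 with TPM, -0.23 with upper-quartile scaling, -0.21 with quantile normalization, -0.19 with cyclic loess, -0.22 with the length and GC correction, and -0.39 to -0.26 leaving out 1 library. TPM moved the median of all genes to 0.14, so that the 78 genes stayed 0.28 below it. Large and small subunit medians were -0.16 and -0.11 with TPM, -0.21 and -0.19 with quantile normalization, and -0.19 and -0.17 with cyclic loess. The large subunit was at -0.22 with the length and GC correction. Leaving out 1 library gave -0.42 to -0.26 for the large and -0.37 to -0.20 for the small subunit. Large minus small was -0.020 with quantile normalization, -0.017 with cyclic loess, -0.068 to -0.040 leaving out 1 library, and 0.015 with the length and GC correction. Without genes that overlap another or have a named pseudogene, an alternative chosen after seeing the data, it was 0.099, with the small subunit at -0.39. The cause was not tested.

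Signs turned for 10 genes named by the rule. The sign also turned for MRPS14, named after its values were seen, at 0.0035 without H2O2 library 1. With TPM the log2 change was 0.096 for MRPL45, 0.076 for MRPL50, 0.074 for MRPS18B, 8.2e-05 for MRPS22, 0.13 for MRPS31 and 0.057 for MRPS5. With quantile normalization it was 0.035 for MRPL45 and 0.028 for MRPS18B, with cyclic loess 0.058 and 0.051. MRPS31 was at 0.026 with upper-quartile scaling and at 0.0069 with the length and GC correction, with and without the block. Leaving out 1 library gave ranges of -0.098 to 0.17 for MRPL10, -0.84 to 0.15 for MRPL33, -0.043 to 0.28 for MRPL35, -0.22 to 0.0035 for MRPS18B, -0.098 to 0.0014 for MRPS31 and -0.14 to 0.66 for MRPS6. FPKM carry no read depth, so no counting error could be set beside any value.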

Other observations

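MRPL46 and MRPS11, 1 gene of each subunit, lie head to head on chromosome 15 of hg38, with 33 bases between the end of MRPL46 at 88467419 on the minus strand and the start of MRPS11 at 88467453 on the plus strand. They were the only pair of the 78 genes within 10000 bases of each other. MRPL46 was at 34.4 and 32.7 FPKM in the controls and at 26.9 and 27.4 FPKM after H2O2, and MRPS11 at 17.2 and 20.2 FPKM against 12.6 and 17.8 FPKM. Both had a log2 change of -0.30, but the treated libraries were level for MRPL46 and apart for MRPS11.

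Exons of the genes overlap those of a neighbour on the other strand in 27 pairs, of which 23 have a tested neighbour. The neighbour's log2 change was negative in 13 and positive in 10 of these, and had the opposite sign to its mitochondrial ribosomal protein gene in 10. The tRNA synthetase SARS2, which overlaps MRPS12, had a log2 change of -0.48, beside -0.34 for MRPS12. PSMA2, a proteasome subunit, had -0.51, beside -0.37 for MRPL32. CACYBP had -0.64, beside -0.21 for MRPS14, and was at 87.0 and 110 FPKM in the controls and 55.4 and 70.5 FPKM after H2O2. NCAPD2, a condensin subunit, had -0.18, beside -0.51 for MRPL51. In the other direction, ABRAXAS1 had 0.11 beside -0.72 for MRPS18C, ABHD8 had 0.23 beside -0.29 for MRPL34, TWNK, the mitochondrial DNA helicase, had 0.20 beside -0.36 for MRPL43, and SYVN1 had 0.22 beside -0.30 for MRPL49.

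Regulators of mitochondrial biogenesis and of the mitochondrial stress response (10 tested of 12) had a median log2 change of -0.05, and for all 10 the first treated library was the higher. MYC was at 384 and 239 FPKM in the controls and at 636 and 281 FPKM after H2O2, and ATF4 at 885 and 580 FPKM against 744 and 336 FPKM, so for both the libraries numbered 1 were the higher in either group. For the 78 mitochondrial ribosomal protein genes, by contrast, the first treated library was the lower in 57, beside 5566 of all 11318 genes tested. That library was also the lower in 68 of 81 cytosolic ribosomal protein genes and in 75 of 79 oxidative phosphorylation genes.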
